A study of Mus musculus with 4 samples.

Results

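The regions described here are stretches of open chromatin close to the start or the stop of a gene that were called in both wild-type newborn mouse hearts and in neither heart lacking 2 retinoid X receptors in cardiomyocytes. They were selected on the calls themselves. Peaks of the 4 libraries on chromosomes 1 to 19 and X that shared 1 bp or more were joined into 53140 regions, and 14123 of these lay within 1 kb of the annotated start or end coordinate of a protein-coding gene. The 2 WT hearts shared calls at 10895 gene-end regions. Of these WT-shared gene-end regions, 645 (5.92%) were called in neither edKO heart and are the WT-only gene-end regions, 1023 were called in 1 edKO heart (the 1-edKO class) and 9227 in both (the all-4 class). The WT-only regions lay within reach of 704 genes. The edKO-only counterpart held 61 of the 9448 gene-end regions that the 2 edKO hearts shared (0.646%). Absence from the edKO lists and presence in the WT lists are therefore properties of the selection, and the share of regions chosen this way is given throughout as a description without a test.

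The assay was ATAC-seq, which reads open chromatin as the places where the Tn5 transposase can insert sequencing adapters. Libraries came from the nuclei of total hearts of C57BL/6 mice at postnatal day 0, with 2 libraries labelled edKO and 2 labelled WT, each from 1 heart. In the edKO hearts RXR alpha and RXR beta were both deleted in cardiomyocytes, per the labels' protocols, so the deletion did not target the other cell types of the heart. The driver of the deletion is not given in the sources used here, the sex of the mice was not labelled, and coordinates are those of GRCm38.

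Retinoid X receptors are nuclear receptors that bind DNA together with a partner such as a PPAR, an LXR, a retinoic acid receptor or a thyroid hormone receptor, most often at repeats of the letters AGGTCA. Around birth, when the heart turns from glucose and lactate to fatty acids as its main fuel, several of these partners drive genes of lipid uptake and oxidation. A gene's start carries its promoter, where the transcription machinery assembles. Promoters rich in CpG dinucleotides are open in most tissues, whereas promoters poor in CpG more often belong to genes used in few tissues. Open chromatin at the stop of a gene can belong to an enhancer, to a neighbouring or an unannotated transcript, or to the end of the gene itself.

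The sequences just upstream of 6 WT-only gene starts show the range of promoters involved. Sequences are from RefSeq on GRCm38.p6, given from 200 bases before the start up to the base before it, 5′ to 3′ along the gene. The first 4 (Acot1, Gemin2, Hrc and Cavin4) are the strongest WT-only promoters whose upstream stretch overlapped no annotated gene, Ap1g2 is shown because it held a direct repeat of the nuclear receptor letters with a spacer of 1 base (DR1), and Isl1 because it is a cardiac transcription factor on a list described below. Their positions are chr12:84009302-84009501, plus strand, for Acot1, chr12:59013191-59013390, plus strand, for Gemin2, chr7:45335069-45335268, plus strand, for Hrc, chr4:48663314-48663513, plus strand, for Cavin4, chr14:55106594-55106793, minus strand, for Ap1g2 and chr13:116309689-116309888, minus strand, for Isl1. Capitals mark any of the 12 motifs searched, on either strand.
Acot1: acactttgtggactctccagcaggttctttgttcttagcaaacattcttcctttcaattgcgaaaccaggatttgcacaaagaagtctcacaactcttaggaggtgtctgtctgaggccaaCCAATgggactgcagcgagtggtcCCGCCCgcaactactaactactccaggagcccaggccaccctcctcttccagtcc
Gemin2: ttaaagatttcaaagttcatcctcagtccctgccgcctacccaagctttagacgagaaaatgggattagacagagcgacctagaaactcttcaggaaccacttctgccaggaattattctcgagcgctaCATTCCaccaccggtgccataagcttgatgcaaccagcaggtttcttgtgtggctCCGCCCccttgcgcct
Hrc: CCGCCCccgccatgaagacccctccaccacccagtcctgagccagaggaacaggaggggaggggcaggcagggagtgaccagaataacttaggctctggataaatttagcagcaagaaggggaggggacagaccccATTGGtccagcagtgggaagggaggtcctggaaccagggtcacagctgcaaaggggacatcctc
Cavin4: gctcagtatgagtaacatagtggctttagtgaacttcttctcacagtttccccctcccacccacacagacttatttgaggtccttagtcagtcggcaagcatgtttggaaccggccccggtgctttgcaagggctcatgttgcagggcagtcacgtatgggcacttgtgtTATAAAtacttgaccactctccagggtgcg
Ap1g2: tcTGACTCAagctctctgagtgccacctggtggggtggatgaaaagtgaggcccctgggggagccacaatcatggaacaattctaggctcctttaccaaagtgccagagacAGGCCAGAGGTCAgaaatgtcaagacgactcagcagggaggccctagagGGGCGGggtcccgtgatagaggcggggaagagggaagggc
Isl1: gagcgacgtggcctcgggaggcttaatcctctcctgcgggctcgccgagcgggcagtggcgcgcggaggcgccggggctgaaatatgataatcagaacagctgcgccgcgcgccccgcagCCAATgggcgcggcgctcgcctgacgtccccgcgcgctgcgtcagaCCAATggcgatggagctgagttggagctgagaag
Acot1, a cytosolic acyl-CoA thioesterase, held CCAAT beginning 79 bases before the start and the reverse of the GC box GGGCGG at 55. Gemin2, a component of the complex that assembles splicing particles, held a reversed GC box at 16 and the reverse of GGAATG, the TEAD motif, at 71, and Hrc, a calcium-binding protein of the sarcoplasmic reticulum, held a reversed CCAAT box at 64 and a reversed GC box at 200. Cavin4, a muscle protein of the membrane pits called caveolae, held TATAAA at 30. In Ap1g2, a subunit of a clathrin adaptor, the DR1 ran from base 89 to base 77 before the start, with 1 mismatch allowed, and contained an AGGTCA. Ap1g2 also held a GC box at 40 and TGANTCA, the AP-1 motif, at 198. Isl1, a homeodomain factor of cardiac progenitors, held CCAAT at 80 and 34. A match is a description of the letters and not evidence that a factor bound there.

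The edKO libraries had fewer peaks and fewer fragments at the summits of peaks. The edKO lists held 27473 and 27142 peaks and the WT lists 35279 and 38809. The pileup, the number of overlapping fragments at a summit, had a median of 19 and 18 in the edKO lists against 23 and 23 in the WT lists. At gene-end regions called in all 4 libraries the median pileup was 39 and 33 in edKO hearts against 58 and 62 in WT hearts, so the pileup was lower in edKO libraries also where every library had a call. The lowest local background of a list, which stands for its relative depth, was 1.51 and 1.92 in edKO lists against 1.81 and 1.80 in WT lists. The median fold of the top 10000 peaks, a measure of enrichment, was 10.2 and 7.61 against 10.8 and 11.5. The edKO libraries called 10649 and 10943 gene-end regions and the WT libraries 11734 and 12169, a difference of means of -1155.5 (10796 ± 208 in edKO, 11951.5 ± 308 in WT, SD, n = 2 each; exact permutation test, two-sided, p = 0.333, the smallest that 2 libraries against 2 can give). Gene ends made up 40.2% and 41.7% of called regions in edKO hearts against 34.0% and 32.04% in WT hearts, a difference of 7.90 percentage points between means of 40.9% ± 1.04 in edKO and 33.0% ± 1.41 in WT (SD, n = 2 each; exact permutation p = 0.333). In both measures the groups did not overlap. With each list limited to its strongest 27142 peaks, the length of the shortest list, the first difference turned to 233 (10789 in edKO and 10556 in WT) and the second shrank to 1.65 percentage points (41.1% in edKO and 39.4% in WT). The second was 15.9 points (61.2% in edKO and 45.2% in WT) where every list was limited to a −log10 p of 10 or more. With lists of equal length the WT-only gene-end regions numbered 257 of 9809 WT-shared ones (2.62%), against 179 edKO-only ones of 9432 (1.90%). A stricter −log10 p of at least 10 in both WT hearts, a limit on the WT lists alone, left 103 WT-only regions of 8969 (1.15%). The same limit in every list, which drops weak edKO calls too, gave 779 WT-only regions of 8963 (8.69%), against 10 edKO-only ones of 7022 (0.142%). Of 12 cardiomyocyte marker genes, 10 and 11 had a called gene-end region in edKO hearts and 10 and 10 in WT hearts, although Nkx2-5 had none in any library. Fibroblast markers had 4 and 5 of 14 in edKO hearts against 8 and 8 in WT hearts, endothelial markers 7 and 5 of 18 against 6 and 9, and immune markers 1 and 1 of 13 against 2 and 2. Smooth muscle markers had 7 and 5 of 11 against 7 and 9, epicardial markers 4 and 4 of 8 against 3 and 4, neuronal markers 7 and 6 of 12 against 5 and 6, and erythroid markers 2 of 11 in every library. The part of cell composition and of depth in the calls was not tested beyond the values given here. In whole hearts, fewer nuclei of a cell type and less accessibility per nucleus cannot be told apart. Rxra and Rxrb each had a called gene-end region in all 4 libraries, which does not check the deletion, since the sources used here do not give the deleted exons.

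The WT-only gene-end regions were weak and narrow peaks. The authors' −log10 p had a median of 8.11 in WT 1 (range 3.22 to 26.9) and of 8.42 in WT 2 (3.72 to 35.6), against 41.4 and 44.4 at gene-end regions that all 4 libraries called. The fold over local background had medians of 4.17 and 4.24 in the WT-only regions against 9.85 and 10.3, and the pileup medians were 18 and 19 against 58 and 62. Regions called in both WT hearts and 1 edKO heart lay between, with medians of 9.89 and 10.9 for −log10 p. Merged width had a median of 319 bp (quartiles 281 and 389 bp), against 425 bp in the 1-edKO class and 728 bp in the all-4 class. A merged region spans the peaks of every library that called it. Classes with more calls therefore tend to be wider by construction. Low strength and small width were not particular to gene ends, since WT-only regions elsewhere had similar medians. Pileup medians in the 2 WT lists were 16 and 17 inside genes (2718 regions) and 15 and 16 between genes (2077 regions). Median widths there were 327 bp and 331 bp. For −log10 p, the paired medians were 8.10 and 9.02 inside genes, and 8.14 and 8.70 between genes. These values come from the calls that chose the regions and are given as a description.

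Both WT hearts ranked the WT-only regions only loosely alike. Across the 645 regions the −log10 p of WT 1 and WT 2 had a Spearman correlation of 0.370, against 0.947 across the 9227 regions called in all 4 libraries, a description over regions that come from the same 2 libraries and span a narrower range in the WT-only class. The value was higher in WT 2 at 357 of 645, and 45 differed by more than 2 times between the hearts. Summits in the 2 hearts lay within 50 bp of each other at 378 regions (58.6%), against 59.4% in the 1-edKO class and 75.3% in the all-4 class. In 103 regions the −log10 p reached 10 in both WT hearts, and 1 region had a q-value over 0.05 in a WT list.

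**Figure D1:**
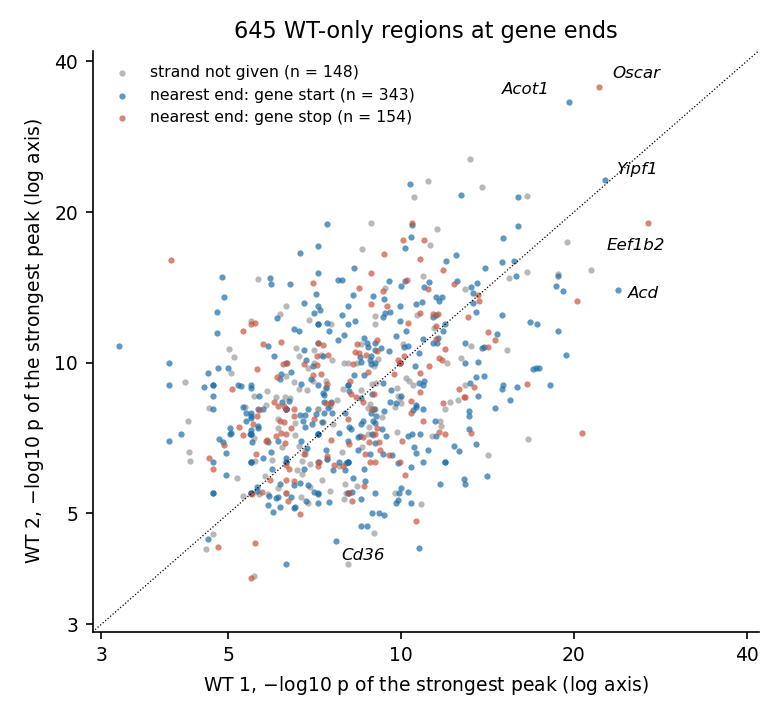
Authors' −log10 p of the 645 WT-only gene-end regions in WT 1 (x axis) and WT 2 (y axis), 1 point per region, on log axes, coloured by the nearest gene end, with 6 genes named and the diagonal of equal values dotted. The medians are 8.11 and 8.42, and Oscar, at 22.2 and 35.6, and Acot1, at 19.6 and 33.1, stand at the upper end.

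The share that was WT-only fell with the strength of the WT peak, where strength is the mean over both WT lists of the percentile of −log10 p. It was 50.7% of 67 regions with a strength under 10, 36.6% of 437 between 20 and 30, 15.4% of 684 between 40 and 50, 1.52% of 1117 between 60 and 70, 0 of 2313 between 80 and 90, and 0 of 2978 above 90. Of the WT-only regions, 569 (88.2%) had a strength under 50 and 1, at Oscar, exceeded 75, among 6214 WT-shared gene-end regions of that strength.

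Gene stops took a larger share of the WT-only regions than of the regions that kept an edKO call. The gene table gives no strand, so starts and stops were told apart with the strand of the RefSeq promoter table, which covers 17274 of 21631 genes (79.9%). By the nearest gene end, 343 regions lay at a start, 154 at a stop and 148 at a gene without a given strand. Starts made up 69.0% of the 497 with a strand (exact 95% binomial interval 64.7% to 73.1%), against 80.7% (77.7% to 83.4%) in the 1-edKO class and 96.5% (96.1% to 96.9%) in the all-4 class. Counted the other way, 27.2% of the 566 WT-shared stop regions were WT-only, and 4.17% of the 8231 WT-shared start regions. The share at stops was close to that of regions inside genes (27.0% of 10085) and of intergenic regions (29.2% of 7107). Intervals cover counting error only, since regions of 1 library are not replicates.

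**Figure D2:**
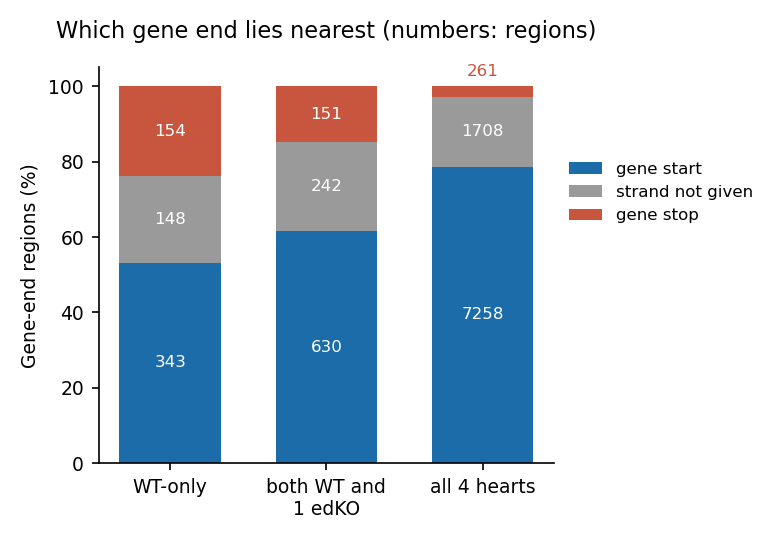
Share of gene-end regions (y axis, percent) whose nearest gene end was a start, a stop or an end without a given strand, for the WT-only, 1-edKO and all-4 classes (x axis), with the number of regions in each block. Stops number 154 of 645 WT-only regions, 151 of 1023 in the 1-edKO class and 261 of 9227 in the all-4 class.

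Stop regions exceeded start regions in WT-only share in each of 4 bands of strength. With a strength under 20, 66.1% of 56 stop regions were WT-only, against 40.6% of 197 start regions. Between 20 and 40 the shares were 49.6% of 141 stop regions and 26.5% of 611 start regions. Between 40 and 60 they were 24.7% of 178 stop regions and 8.91% of 1010 start regions, and above 60, 1.57% of 191 and 0.172% of 6413. WT-only stop and start regions themselves were alike in strength, with median −log10 p of 8.35 and 8.55 in WT 1 and WT 2 at stops and 8.24 and 8.43 at starts. The stop share was the higher one under the 12 other settings of distance, list length, threshold, overlap, merging and library choice, with 9.44% to 48.3% at stops and 0.795% to 8.99% at starts. A noncoding gene had an end within 1 kb of 7 of the 154 WT-only stop regions (4.55%), against 28 of the 261 stop regions called in all 4 libraries (10.7%).

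**Figure D3:**
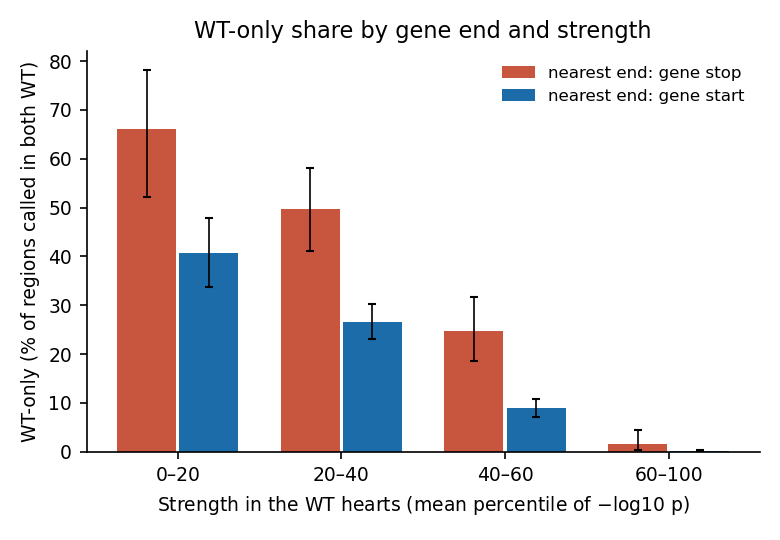
WT-only share (y axis, percent of WT-shared gene-end regions) at gene stops and gene starts by band of strength (x axis), with exact 95% binomial intervals. Stop regions lie above start regions in all 4 bands, 66.1% against 40.6% in the weakest and 1.57% against 0.172% in the strongest. Strength can differ between stops and starts within a band.

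At starts, 170 of the 343 WT-only regions overlapped the start coordinate (49.6%) and 190 lay within 100 bp of it, whereas 86.7% of the start regions called in all 4 libraries overlapped it. At stops, 15 of 154 overlapped the stop coordinate and the median distance was 425.5 bp. Of the 154 stop regions, 91 (59.1%) belonged to a gene whose start was called in both edKO hearts, and 106 (68.8%) to one whose start was called in at least 1. Among the 343 start regions, 97 (28.3%) had another region at the same gene's start that both edKO hearts called. Over all 704 genes, 367 (52.1%) had another gene-end region called in an edKO heart, 283 (40.2%) in both, and 337 had none. A WT-only region also lay inside 89 of the genes (12.6%). The nearest region called in an edKO heart was a median of 5283 bp away (quartiles 583 and 15805 bp), and it was within 500 bp of 154 of the WT-only regions (23.9%). These shares of genes and of nearby edKO calls have no counterpart here over all genes or over the other classes. They do not show whether these genes kept edKO calls more or less often than others.

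Promoters under the WT-only regions were poorer in CpG than promoters under regions called in all 4 libraries. RefSeq promoter windows, 300 bases from 250 before to 50 after a start, overlapped 191 of the regions in 198 windows of 192 genes. Their CpG observed over expected, the count of CpG against that expected from the C and G content, had a median of 0.582, against 0.695 in the 1-edKO class (516 windows), 0.822 in the all-4 class (8413 windows), 0.224 where no library had a call (9516 windows) and 0.574 over all 21045 windows. Median GC content was 56.3% in WT-only windows and 63.0% in the all-4 class, with a median of 13 CpGs and 24 CpGs a window. A ratio above 0.6 was found in 92 WT-only windows (46.5%), against 84.6% in the all-4 class and 48.1% of all promoters. Of the windows on WT-shared regions, 6.68% of the 1588 at or below 0.6 were WT-only, and 1.22% of the 7539 above it. Within bands of strength the shares were 39.7% at or below 0.6 and 25.0% above it in the band under 20, 28.0% and 13.9% between 20 and 40, 7.02% and 4.70% between 40 and 60, and 0.582% and 0.0610% above 60.

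**Figure D4:**
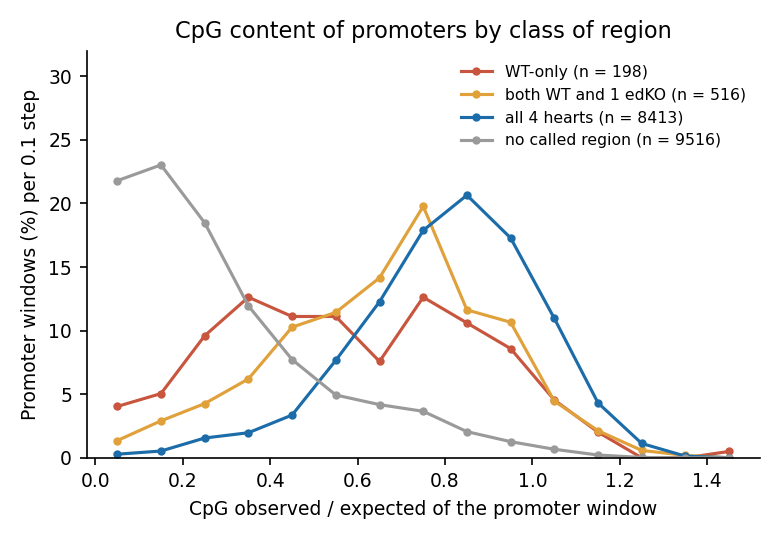
Distribution of CpG observed over expected (x axis, ratio) in RefSeq promoter windows for 4 classes of window (y axis, percent of windows per step of 0.1), namely under WT-only regions, under 1-edKO regions, under all-4 regions and under no called region. WT-only windows spread from CpG-poor to CpG-rich, with a median of 0.582 that lies below 0.695 in the 1-edKO class and 0.822 in the all-4 class and above 0.224 where no library had a call.

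The motifs rich in C and G were in fewer WT-only windows than all-4 windows. GGGCGG, the GC box bound by the SP family, was in 51.5% of WT-only windows, against 73.6% in the all-4 class and 46.7% of all promoters. CCGGAAG, the core of ETS sites, was in 9.09% against 21.9% and 11.7%. TATAAA was in 9.60% against 5.23% and 12.7%, and AGATAA, bound by factors of the Gata family, in 11.6% against 4.54% and 9.68%. A loose MEF2 pattern, CTA and TAG around any 4 bases, was in 5.05% (10 windows) against 2.83% and 3.51%. The nuclear receptor letters AGGTCA were in 13.6% of WT-only windows, against 10.4% in the all-4 class and 14.6% of all promoters, and AAGGTCA, which lies within the AGGTCA count, in 3.03% against 2.51% and 4.06%. DR1, which always holds an exact AGGTCA and so lies within the AGGTCA count, was in 2 of 198 WT-only windows (1.01%), Ap1g2 and Myo5c, against 0.321% in the all-4 class and 0.485% of all promoters. CCAAT (34.8%, 40.1% and 38.5%), CACGTG (7.58%, 11.3% and 7.91%), TGANTCA (6.06%, 3.41% and 7.04%) and GGAATG (11.6%, 10.6% and 13.5%) were also searched, in the same order of classes and on both strands.

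The strongest WT-only region was at the stop of Oscar, an immunoglobulin-like receptor of osteoclasts and myeloid cells, at chr7:3609039-3609636 and 177 bp from the stop. Pairs of values here and below are the −log10 p of WT 1 and of WT 2, and at Oscar they were 22.2 and 35.6, with 35 and 49 fragments. The start of Acot1 (chr12:84009305-84009974, overlapping its start and the stretch printed above) had 19.6 and 33.1, with 35 and 49 fragments and a fold of 6.41 and 8.87. Acot1 belongs to a cluster of near-identical thioesterase genes, so reads there can map to more than 1 copy. Yipf1, which encodes a Golgi membrane protein, had 22.6 and 23.2 at its start (chr4:107314197-107314516), and Gemin2 had 15.99 and 21.4 at its start (chr12:59013260-59013533). The start of Oscar was called in both edKO hearts. Acot1, Yipf1 and Gemin2 had no other gene-end region called in an edKO heart, although a region that both edKO hearts called lay 894 bp from that of Gemin2.

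Further strong regions at starts were those of Tchp, a keratin-binding centrosome protein (chr5:114707373-114708061, 15.96 and 18.7), and Hrc (chr7:45335024-45335317, 15.04 and 17.8). Acd, a subunit of the telomere-protecting shelterin complex, had 23.9 and 13.99 at a region (chr8:105700924-105701336) that also overlapped the start of Pard6a, on the opposite strand. This shared region lay 56 bp from a region that both edKO hearts called. Hexim1, an inhibitor of the elongation kinase P-TEFb, had 18.7 and 14.9 at 718 bp from its start (chr11:103115314-103115607), 231 bp from such a region. Eef1b2, a translation elongation factor subunit, had 26.9 and 18.98 at 608 bp from its stop (chr1:63181094-63181404), and the start of Eef1b2 was called in both edKO hearts. Others among the strongest regions lay at ends without a given strand. They included Rtn4rl1, a Nogo receptor-like protein of neurons (16.6 and 21.5), Nop53, a ribosome assembly factor (19.4 and 17.5), and Ly96, a partner of the endotoxin receptor TLR4 (21.4 and 15.3). The region of Nop53 was not WT-only where a peak had to cover at least 50% of the region, or with windows around summits. Rsph1, a protein of the ciliary radial spoke, had 18.8 and 15.05 at 86 bp from an end, also without a strand.

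The 5 widest regions were at Shisa3 (1202 bp), Mdfic (1013 bp), Usp27x (808 bp), Rftn1 (757 bp) and Qpct (739 bp). In Shisa3 the values were 7.75 and 11.1, and in Mdfic 9.81 and 8.31, so both were wide and weak. No gene had 3 WT-only regions and 17 had 2. The strongest of these were Rtn4rl1, Icosl, Elmod3, Pitpnm1 and Bcdin3d. At the 1 kb limit, Crtap (999 bp from its start, 9.61 and 8.82), Npm3 (999 bp, 7.01 and 9.45) and Mylpf (998 bp, 20.6 and 7.22) were inside. Il4ra (1001 bp, 5.53 and 6.63), Rrbp1 (1012 bp, 6.01 and 7.58) and Dcp1b (1012 bp, 11.8 and 8.74) were outside.

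By chromosome, WT-only regions made up 3.04% (11 of 362) of the WT-shared gene-end regions on chromosome 12 and 8.52% (26 of 305) on X, with 8.29% on chromosome 6. With the sex unlabelled, a difference in X copies between libraries cannot be told apart from the genotype there.

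Fatty acid genes held 6 WT-only regions among their 51 WT-shared gene-end regions (11.8%, against 5.92% over all genes), a count of regions and not a test. Besides Acot1 these were Cd36, the fatty acid importer of the cell surface, at its start (chr5:17888672-17888965) with 8.71 and 4.71 on 14 and 9 fragments, Hadh, a dehydrogenase of mitochondrial beta-oxidation (10.5 and 18.9 at 582 bp from its start), and Cpt1a, which commits fatty acids to mitochondria (8.61 and 11.2 at 359 bp from its start). Slc27a4, a fatty acid transporter, had 11.2 and 9.83 at 175 bp from its stop, and Crat, carnitine acetyltransferase, had 5.78 and 5.94 at 764 bp from an end without a strand. Hadh, Cpt1a, Slc27a4 and Crat each had another gene-end region called in both edKO hearts. Acot1 and Cd36 had none called in either. The region of Cd36 was not WT-only with lists of equal length. It was also lost with a −log10 p of at least 10 in both WT hearts or in every list, whereas that of Acot1 stayed under these settings.

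Targets of PPAR and RXR held 6 WT-only regions of 31 (19.4%), of which Acot1 and Cd36 are also fatty acid genes. Scd1, which introduces double bonds into fatty acids, had 8.77 and 8.13. Abcg1, a cholesterol exporter and LXR target, had 7.41 and 9.18. Txnip, an inhibitor of thioredoxin and glucose uptake, had 8.68 and 10.4 at 534 bp from its stop, and its start was called in both edKO hearts. Pdk4, which spares glucose, and Angptl4, an inhibitor of lipoprotein lipase, held no WT-only gene-end region. With lists of equal length, fatty acid genes held 4 of 47 and PPAR and RXR targets 4 of 28, against 2.62% over all genes. With a −log10 p of at least 10 in both WT hearts they held 2 of 44 and 1 of 23, against 1.15%.

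Nuclear receptor genes and coregulators held 5 of 42 (11.9%). Nr1h2, which encodes LXR beta, had 13.2 and 14.1 at its start (chr7:44553836-44554121), 104 bp from a region both edKO hearts called. Thra, for thyroid hormone receptor alpha, had 8.87 and 18.996, and Thrb, for thyroid hormone receptor beta, had 13.2 and 9.10 at its start (chr14:17659056-17659345). Esrrg, for an orphan receptor of oxidative metabolism, had 8.51 and 10.04 at 959 bp from its start, and Rarg, for retinoic acid receptor gamma, had 5.04 and 7.41 at 56 bp. Nr1h2 and Thra had 2 other gene-end regions called in both edKO hearts, and Esrrg and Thrb had none in either.

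The contractile and calcium list held 4 of 56 (7.14%), near the share over all genes. They were Hrc, Actc1 for cardiac actin (14.2 and 11.5 at 797 bp from its stop, with its start called in both edKO hearts), Trdn, which anchors the calcium release channel (10.3 and 9.20), and Ckmt2, mitochondrial creatine kinase (6.96 and 9.26 at 496 bp from its start). Cardiac transcription factors held 3 of 32 (9.38%). Isl1 had 15.05 and 9.02 at its start, with the nearest region of an edKO heart 121 bp away and called in 1 of them. Irx4, a ventricular homeodomain factor, had 8.53 and 8.52, and Gata5, a GATA factor of the endocardium, had 5.63 and 7.46. The citric acid cycle and respiratory chain list held 2 of 48 (4.17%), Idh2 (5.90 and 14.8) and Uqcrc1 (10.4 and 8.38). Glycolysis held 1 of 26 (3.85%), the lactate exporter gene Slc16a3 (6.09 and 9.35). Housekeeping genes held 2 of 34 (5.88%), Emc7 and Rab7, and cell cycle genes 0 of 32. None of the shares of the functional lists was tested, since regions are not replicates. The share over all genes was not matched to any list for strength or for starts and stops, with which the WT-only share varied.

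Of the 8 cell type marker lists, 6 held 1 WT-only region each, to be read against 5.92% over all genes. These were Actc1 for cardiomyocytes (1 of 15, or 6.67%, near that share), Sox18 for endothelium (1 of 7, with 8.94 and 7.18), Tcf21 for fibroblasts (1 of 6, with 10.5 and 7.20), Tagln for smooth muscle (1 of 6), Tbx18 for epicardium (1 of 4) and Spi1 for immune cells (1 of 2, with 15.3 and 10.6). The region of Tagln lay nearer to Sidt2. Erythroid (2 regions) and neuronal lists (6 regions) held 0. Outside cardiomyocytes these counts rest on 2 to 7 regions a list. Sox18, Tcf21 and Spi1 had no other gene-end region called in an edKO heart. Tbx18 had another one called in each edKO heart, and Tagln had one called in edKO 1. Other genes of the same lists, such as Kdr, Col1a1 and Lcp1, also had gene-end regions called in both edKO hearts. The counts for whole lists are given above. Endothelial cells, fibroblasts and immune cells were not targeted by the deletion, per the labels' protocols.

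**Figure D5:**
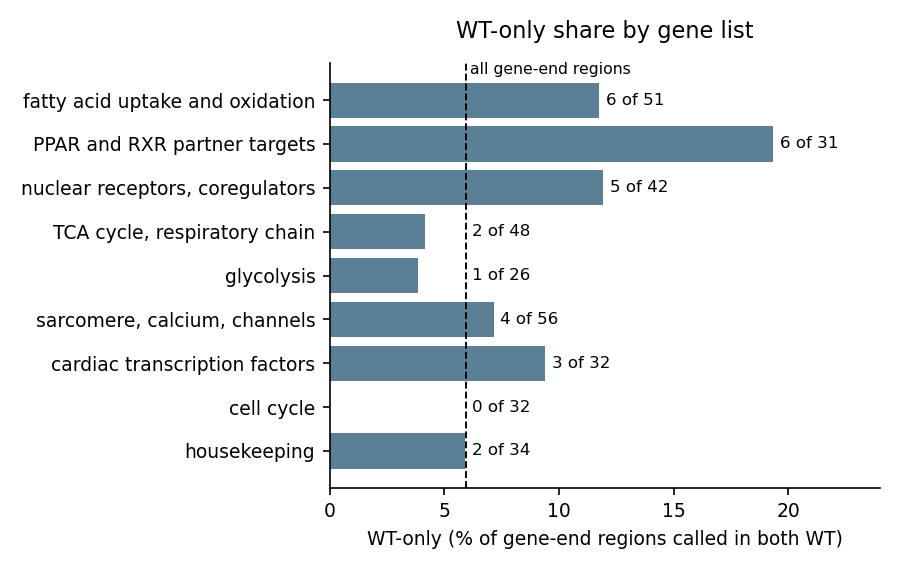
WT-only share (x axis, percent of WT-shared gene-end regions) of the 9 functional gene lists (y axis), with the share of 5.92% over all genes as a dashed line. PPAR and RXR targets (19.4%, 6 of 31) lie above it and housekeeping genes (5.88%, 2 of 34) on it, and each bar rests on at most 6 WT-only regions.

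How far the lower pileup at summits in the edKO libraries reaches was calculated by scaling. The WT pileup was brought to the level of each edKO library at regions called in all 4 (ratios of 0.667 for edKO 1 and 0.568 for edKO 2). The scaled pileup was at or above the lowest pileup called in edKO 1 at 645 of the 645 regions and in edKO 2 at 568. That lowest pileup, 6 in edKO 1 and 7 in edKO 2, is the smallest of any peak in the list, whatever its local background. WT-only regions had a median local background of 3.24 in WT 1 and 3.42 in WT 2, against lowest ones of 1.81 and 1.80 in those lists. Passing it is therefore a lenient condition that leaves out the local background. In an alternative chosen after seeing the data, the background was scaled as well and a Poisson p computed, which put 629 of the 645 regions (97.5%) past the calling threshold of edKO 1 and 226 (35.0%) past that of edKO 2. All 226 passed in edKO 1 as well. Among WT-shared gene-end regions put below 3 in −log10 p for edKO 2, that library still called 44.6% of 1071, and among those put between 3 and 5 it called 66.4% of 1472. In edKO 1 the calls were 43.2% of 868 between 3 and 5 and 79.2% of 2181 between 5 and 10. The 2 calculations thus gave 568 regions past the lowest pileup and 226 past the Poisson threshold in both edKO libraries, which are unlike conditions.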

How the data were processed

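ATAC-seq libraries were made from the nuclei of 4 whole newborn hearts, 2 labelled edKO and 2 labelled WT. The authors deposited 1 peak list per heart, so peaks were called per sample. The submitters' processing notes name MACS2, SAMtools, Bowtie2, cutadapt, bcl2fastq and CASAVA as tools, and GRCm38 and mm10 as builds. Not given in the sources used here were tool versions, the shift for the Tn5 insertion and the treatment of duplicates. Each line of a list deposited by the authors holds the fold enrichment over local background at the summit, its −log10 p and −log10 q-value, the summit position, and a score, which is 10 times the −log10 p without its decimals. These values depend on depth and background. They were used here to rank or select peaks within a list, to set the 2 WT lists side by side, to summarise whole lists, and for a threshold of 10 in −log10 p applied to several lists, so such comparisons carry differences in depth.

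The pileup at each summit was solved from the authors' fold and −log10 p as a Poisson tail probability. The solution was whole, to within 0.001 in −log10 p, at 99.9858% to 100% of peaks per list. The depth of each library in reads was not used here, and relative depth was read from the lowest local background.

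Regions, classes and strength were formed as the report describes. Gene positions came from a RefSeq table on GRCm38.p6 with 21631 protein-coding genes, and strand from the RefSeq promoter table. In promoter windows of 300 bases, CpG observed over expected and 12 motifs were counted on both strands. DR1 is a direct repeat of AGGTCA with a spacer of 1 base and 1 mismatch allowed. The MEF2 pattern begins with CTA and ends with TAG around any 4 bases, so a match need not be a MEF2 site. The scaled calculation multiplied the mean WT pileup by the median ratio to each edKO library over all-4 gene-end regions, rounded the product down and took its Poisson p.

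Named are the 15 strongest WT-only regions, the 5 widest, up to 5 genes with 2 regions, the 3 nearest to the 1 kb limit on either side, and every region of a gene on a list, apart from a few that are not reported here. In addition, Cavin4, Ap1g2 and Myo5c were chosen for their promoter sequence after their values were seen, and Pdk4 and Angptl4 after their absence was seen. The members and the 17 lists (9 functional and 8 marker lists, 424 genes, all matched) were chosen with earlier results of these data known. Differences between libraries were tested by an exact permutation test. Binomial intervals are exact (Clopper-Pearson) and cover counting error only. The alternatives changed the distance to a gene end, list length, threshold, overlap and merging, the libraries used and the definition of a start. The pileup solution was checked on simulated data, and the joining of peaks into regions on a small made-up set of peaks. Python 3.11.15, numpy 2.4.6, pandas 2.3.3, scipy 1.17.1 and matplotlib 3.10.9 were used.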

Additional observations from a re-analysis of the deposited data

How the results depend on the processing

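The main values were 645 WT-only gene-end regions, 704 genes and 69.0% of regions at starts. Lists of equal length gave 257 regions and 285 genes, and a −log10 p of at least 10 in both WT hearts gave 103 and 117. The planned scaling of WT fragments to edKO gave 568 and 627, held against the lowest pileup called whatever the local background. The scaling of fragments and background, an alternative chosen after seeing the data, gave 226 and 247. Leaving out 1 library at a time gave 1033 to 1476 regions, 1117 to 1561 genes and 70.5% to 76.6% at starts, with the highest count without WT 1. A class that asks for fewer calls or fewer absences holds more regions by construction. The share at starts was 75.5% within 500 bp of a gene end, 62.4% within 2 kb, 84.5% where every list was limited to a −log10 p of at least 10, 76.1% where a peak had to cover at least 50% of the region, 74.0% with windows around summits, and 38.4% where a start meant overlap with the promoter window. The cause of these shifts was not tested, apart from the fewer or more regions that each setting admits. The difference in gene-end regions per library turned from -1155.5 to 233 with lists of equal length (10789 in edKO and 10556 in WT), and that in the share of gene ends ranged from 1.65 points with those lists to 15.9 points where every list was limited to a −log10 p of at least 10. With the replicate number as a replicate block the differences stayed at -1155.5 and 7.90, with an exact p of 0.5, the smallest that 2 pairs allow. The numbers in the labels do not say that libraries share a batch. Of 45 regions followed, the 15 strongest and those of listed genes, 11, Acot1 and Oscar among them, were WT-only under the 12 other settings of distance, list length, threshold, overlap, merging and library choice, and 7 under 8, the fewest. A distance of 2 kb and leaving out an edKO library keep every region by construction. Depth and enrichment limit the class itself, since a missing call shows only a value under the threshold, and with 2 hearts a group no p under 0.333 could arise.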
